A study of Mus musculus with 12 samples.

Results

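A set of 6 genes that earlier work reported to differ between substrains of the C57BL/6 mouse, in sequence, copy number or RNA level, were followed in the RNA-seq counts of hematopoietic stem cells (HSCs) with and without Pon2. They were Nnt, Wdfy1, Entpd4, Ide, Cyfip2 and Nlrp12, of the 49585 genes counted. The list was taken from substrain reports and not ranked by counts, but it and the tests were chosen with earlier results of these data known. Wdfy1 alone was selected on measured values, its counts in these same 12 samples, which were already known to separate the genotypes. Its contrast is therefore a description without a test. The question was whether any of the other 5 genes separated the genotypes as well.

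The series held 12 samples of HSCs sorted from bone marrow as Lin-, Sca1+, ckit+, CD135- and CD150+ cells, from 6 wild-type (WT) and 6 Pon2-/- mice aged 10 to 14 weeks. By the study's own account this sort holds both long-term HSCs and MPP2 progenitors, and HSC stands here for the mixture. Each sample stood for 8 wells of 10 cells from 1 mouse, and the study counts 8 RNA-seq per mouse, made with the Smart-seq2 protocol. The study's methods do not state at which step the wells were combined. The Pon2-/- mice carried a gene trap vector with β-geo between loxP sites in intron 2 of Pon2, with no Cre or tissue-specific promoter named. Pon2 encodes an antioxidative enzyme of intracellular membranes. Both groups carried the strain label C57BL/6J, and the labels name no treatment for either. The WT mice came from Charles River, and both groups were kept in the same animal facility. The labels gave no substrain history or backcross of the Pon2-/- line, and no littermate controls. A difference from the Pon2 mutation and a difference in genetic background therefore cannot be told apart by genotype in these samples.

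Total counts ranged from 12967791 to 24228280 in WT HSCs (median 17601783) and from 14671353 to 23122382 in Pon2-/- HSCs (median 18029073). A count of 0 allowed up to 3 counts, or 0.121 to 0.235 counts per 1000000 counts (CPM), which covers counting error only. The 9 HSC and sort markers all had counts, and their summed level was 1848 to 2483 CPM in WT samples and 1814 to 2421 CPM in Pon2-/- samples. Flt3, which encodes the CD135 used to exclude cells in the sort, had 4.59 to 65.0 CPM over all 12 samples. Neutrophil and monocyte markers, all 6 with counts, summed to 1.35 to 8177 CPM in WT samples and 51.5 to 13398 CPM in Pon2-/- samples. B lineage markers, all 5 with counts, summed to 25.5 to 318 CPM in WT samples and 58.8 to 460 CPM in Pon2-/- samples. Their part in the results below was not tested. Of 5 T lineage markers, Cd3e, Cd8a and Trbc2 were at 0 in all samples. Y-linked genes summed to more than 10 CPM in WT replicates 4 to 6 and Pon2-/- replicates 3 to 6. These are called samples with Y-linked counts, and the other 5 are called samples without. The members with counts are also given within these sets.

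Pon2, at chr6:5264147-5298455 on the minus strand (GRCm38), checked the labels. It had a lowest, median and highest level of 56.4, 105.0 and 202 CPM in WT HSCs and of 1.16, 29.9 and 33.1 CPM in Pon2-/- HSCs. All Pon2-/- samples were below all WT samples, and Pon2-/- replicate 5 stood apart below the other 5. The log2 fold change was -2.13 (SE 0.57, n = 6 per genotype, edgeR adjusted p = 0.586, two-sided exact permutation test p = 0.00216, the smallest p that 6 against 6 samples can give).

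Inbred substrains share a common founder and then drift apart as new mutations become fixed in separate colonies. C57BL/6J and C57BL/6N are the substrains in widest use, and C57BL/6J carries a well-known deletion within Nnt. Nnt encodes nicotinamide nucleotide transhydrogenase, an enzyme of the inner mitochondrial membrane that uses the proton gradient to form NADPH, which glutathione and thioredoxin systems use to remove peroxides. Wdfy1 encodes a FYVE and WD repeat protein of early endosomes that links TLR3 and TLR4 to the adaptor TRIF. Entpd4 encodes an intracellular nucleoside diphosphatase, Ide the insulin-degrading enzyme, Cyfip2 a subunit of the WAVE complex that couples Rac to actin assembly, and Nlrp12 an NLR protein that dampens inflammatory signalling in myeloid cells. Sequence variants themselves cannot be read from counts per gene, so only levels of RNA are described.

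Entpd4 and its neighbour Entpd4b carried the same sequence, which is shown because both had 0 counts in all 12 samples. Entpd4 lies at chr14:69337174-69367270 and Entpd4b at chr14:69555424-69585520, both on the plus strand (GRCm38). The first 120 coding bases of each within 1 exon, at chr14:69349073-69349192 and at chr14:69567323-69567442, are given below from 5′ to 3′. No base is in capitals, because 0 of the 120 bases differed.
Entpd4: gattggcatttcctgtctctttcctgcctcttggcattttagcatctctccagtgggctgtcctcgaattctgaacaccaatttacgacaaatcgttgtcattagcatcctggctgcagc
Entpd4b: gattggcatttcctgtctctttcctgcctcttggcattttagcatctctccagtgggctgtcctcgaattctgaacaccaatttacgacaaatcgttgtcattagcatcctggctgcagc
The longest coding transcripts, with 1839 coding bases in 3589 bases, differed at 0 positions, and all 8206 of the 50-base stretches in Entpd4 transcripts also occurred in another gene, Entpd4b. A read from one copy maps equally well to the other, and STAR counts on genes only reads with a single place in the genome. The 0 counts of Entpd4 therefore set no upper limit on its RNA, and its genotypes could not be compared. The other members shared little sequence with other counted genes. In Wdfy1 1.66% of the 50-base stretches occurred in another gene, in Ide and Cyfip2 0, and in Nlrp12 2.72%. For Nnt 46.8% of the stretches were shared with a second annotation of Nnt at the same place that the counted gene set does not hold.

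Wdfy1, at chr1:79702262-79776143 on the minus strand, was higher in Pon2-/- HSCs. Its level in WT replicates 1 to 6 was 2.08, 38.6, 20.6, 37.3, 6.75 and 41.1 CPM. In Pon2-/- replicates 1 to 6 it was 90.3, 100.2, 80.3, 105.2, 122.3 and 104.7 CPM. The lowest Pon2-/- sample was above the highest WT sample, so the genotypes did not overlap. The means were 24.4 ± 17.2 CPM in WT samples and 100.5 ± 14.3 CPM in Pon2-/- samples (SD, n = 6 each), or 4.12-fold (log2 2.04, SE 0.56). Of the 11848 genes tested, 0.388% had all Pon2-/- samples above all WT samples, and 0.633% did not overlap in either direction. These shares are given beside Wdfy1 as background and carry no test of it. Because the genotypes did not overlap, the same order within any set of these samples was fixed in advance and adds no support. Samples with Y-linked counts had 6.75 to 41.1 CPM in WT and 80.3 to 122.3 CPM in Pon2-/- HSCs. Those without had 2.08 to 38.6 CPM and 90.3 to 100.2 CPM. Exons of Wdfy1 and of Mrpl44, a mitochondrial ribosomal protein gene on the other strand, overlap over 126 bases. Mrpl44 itself had 109 ± 23.2 CPM in WT samples and 136 ± 31.8 CPM in Pon2-/- samples (SD, n = 6 each, log2 fold change 0.33, SE 0.20, edgeR adjusted p = 0.9999).

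Wdfy1 was uneven among WT mice and even among Pon2-/- mice. WT replicates 1 and 5, with 49 and 93 counts, were the low samples, and the other 4 WT samples had 477 to 731 counts. The SD of log2 CPM was 1.72 in WT and 0.21 in Pon2-/- HSCs. Among tested genes of like level in WT, 1467 in all, 76.1% had no larger SD than Wdfy1, and among 1727 genes of like level in Pon2-/- HSCs 3.65% had no larger SD. The ratio of the WT to the Pon2-/- SD was 8.31, against a median of 0.968 over 11839 tested genes, and 14 of them had a higher ratio. This ratio takes no account of level, and Wdfy1 was lower in WT. The genes of like level had a median SD of 1.22 in WT and 0.52 in Pon2-/- HSCs. The spread is a description, since it comes from the samples in which Wdfy1 was already known to separate the genotypes.

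**Figure D1:**
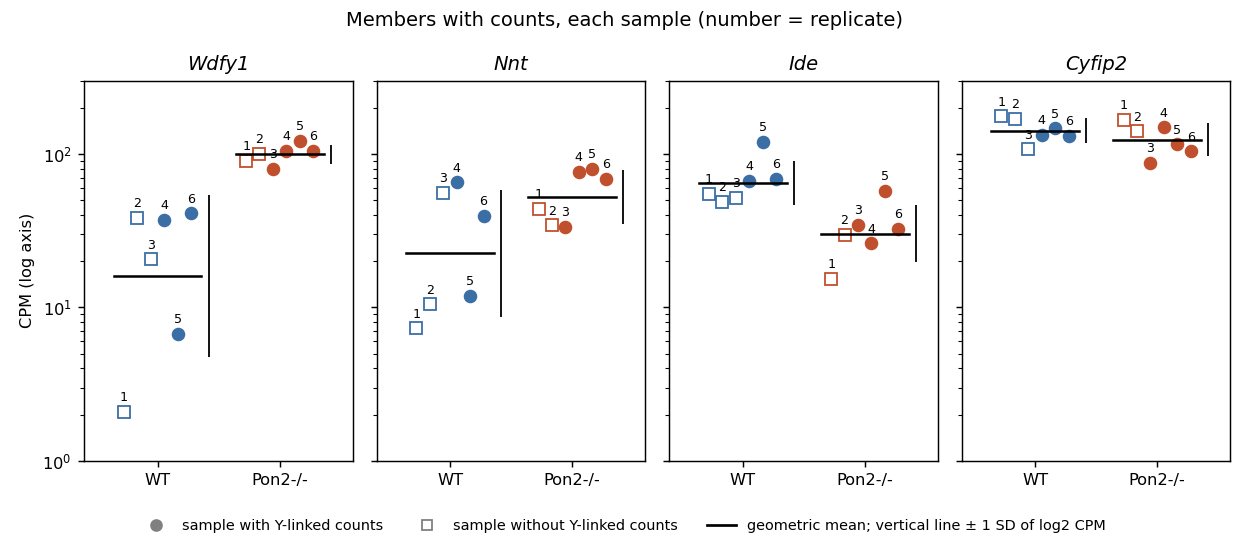
CPM on a log axis of the 4 members with counts in each of 6 WT and 6 Pon2-/- samples, numbered by replicate, with filled circles for samples with Y-linked counts and open squares for those without. Horizontal lines are geometric means and vertical lines ± 1 SD of log2 CPM. Wdfy1 is at least 80.3 CPM in all Pon2-/- samples and at most 41.1 CPM in all WT samples, Ide overlaps through Pon2-/- replicate 5, and Nnt and Cyfip2 overlap broadly.

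Ide, at chr19:37268743-37337852 on the minus strand, was the member nearest to separating the genotypes beside Wdfy1, in the opposite direction. In WT replicates 1 to 6 its level was 55.3, 48.6, 51.8, 66.9, 120.6 and 68.9 CPM. In Pon2-/- replicates 1 to 6 it was 15.4, 29.5, 34.3, 26.1, 57.3 and 32.5 CPM. Pon2-/- replicate 5 lay above 3 of the WT samples, and the other 5 Pon2-/- samples lay below all WT samples. The means were 68.7 ± 26.7 CPM in WT samples and 32.5 ± 13.9 CPM in Pon2-/- samples (SD, n = 6 each), with a log2 fold change of -1.08 (SE 0.36). In edgeR's fit across all genes this did not pass the threshold (unadjusted p = 0.00957, adjusted p = 0.9999). The difference of mean log2 CPM, -1.11, had p = 0.00866 in the two-sided exact permutation test of this single gene, which was not adjusted for the 3 members tested or for the 11848 genes. An unadjusted p under 0.05 was found for 3.13% of all tested genes.

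The lower level of Ide was found in both sets of samples. Among samples with Y-linked counts, WT HSCs had 66.9 to 120.6 CPM and Pon2-/- HSCs 26.1 to 57.3 CPM. Among those without, WT HSCs had 48.6 to 55.3 CPM and Pon2-/- HSCs 15.4 to 29.5 CPM. The genotypes thus did not overlap within either set, which was also the case, with lower levels in Pon2-/- HSCs, for 0.641% of all tested genes, and in either direction for 1.32%. Over all 12 samples only Pon2-/- replicate 5, with Y-linked counts, lay above any WT samples, and those were the 3 without. The split parted exactly these samples, so the lack of overlap within the sets follows from the known order and adds no support. The samples with Y-linked counts were the higher ones in WT, where all 3 lay above the 3 without. With a term for Y-linked counts beside the genotype, chosen after seeing the data, the log2 fold change was -1.19 (SE 0.32, edgeR adjusted p = 0.509). Over all 12 samples 0.245% of the tested genes had every Pon2-/- sample below every WT sample, and Ide was not among them. Without Pon2-/- replicate 5, the sample that also had the lowest Pon2 level, the log2 fold change was -1.32 (edgeR adjusted p = 0.626). DESeq2 gave -1.07 with an adjusted p of 0.0660 with default settings and of 0.0345 without its cutoff for single outlying counts, a setting in which 3.81% of the genes tested were called.

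Nnt, at chr13:119335448-119408997 on the minus strand, overlapped between the genotypes. The level in WT replicates 1 to 6 was 7.30, 10.4, 56.1, 65.4, 11.9 and 39.5 CPM. In Pon2-/- replicates 1 to 6 it was 43.7, 34.3, 33.4, 76.3, 80.0 and 69.3 CPM. WT replicates 1, 2 and 5 were below all Pon2-/- samples, and the other 3 WT samples lay within their range. The means were 31.8 ± 25.4 CPM in WT samples and 56.2 ± 21.4 CPM in Pon2-/- samples (SD, n = 6 each). On the log2 scale Nnt differed by 0.82 (SE 0.56, edgeR adjusted p = 0.9999). The difference of mean log2 CPM was 1.21 (two-sided exact permutation test p = 0.0866). Without WT replicate 3 it was 1.48 (exact permutation p = 0.0390), and without WT replicate 4 it was 1.52 (exact permutation p = 0.0303), neither adjusted for the members tested. Leaving out another sample gave exact permutation p values of 0.0779 to 0.162, with the smallest difference, 0.89, without WT replicate 1. Among samples with Y-linked counts, Nnt had 11.9 to 65.4 CPM in WT and 33.4 to 80.0 CPM in the Pon2-/- samples, and among those without, 7.30 to 56.1 CPM and 34.3 to 43.7 CPM, with overlap in both. Reads on Nnt were present in all 12 samples, and whether they span the exons deleted in C57BL/6J was not analysed here, since the counts hold 1 value per gene.

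Like Wdfy1, Nnt had a larger SD of log2 CPM in WT, 1.37, than in Pon2-/- HSCs, 0.58. The ratio of these SDs was 2.36, and 7.80% of the tested genes had a higher one, again without account of level. Among genes of like level, 75.2% in WT and 33.5% in Pon2-/- HSCs had no larger SD than Nnt. Their median SD was 1.00 in WT and 0.70 in Pon2-/- HSCs. WT replicates 1 and 5 were among the low samples for both genes. Across the 12 samples, which include the genotype difference of Wdfy1, Pearson's r of log2 CPM between Nnt and Wdfy1 was 0.759 (Spearman's rho 0.699), and it was 0.662 over the 6 WT and 0.805 over the 6 Pon2-/- samples, given as a description. The other 5 pairs of these 4 genes had r from -0.60 to -0.02 over the 12 samples. Within a genotype the value farthest from 0 among all pairs was that of Nnt with Cyfip2 in WT, -0.87, against 0.08 in Pon2-/- HSCs.

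**Figure D2:**
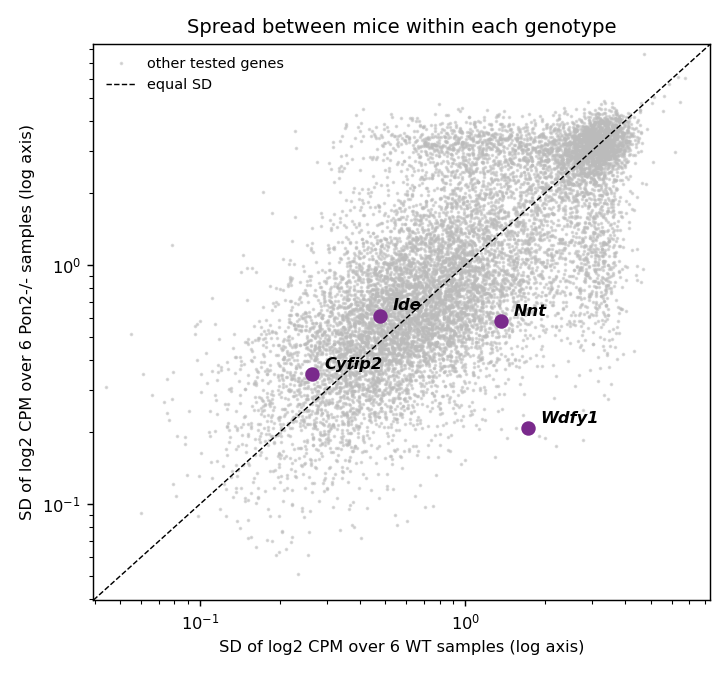
SD of log2 CPM over 6 WT samples (x axis) against SD over 6 Pon2-/- samples (y axis), both on log axes, for 11839 tested genes in grey and the 4 tested members in purple. The 9 genes without spread in 1 genotype are not drawn. Wdfy1 lies far below the dashed line of equal SD, at 1.72 against 0.21, Nnt lies below it at 1.37 against 0.58, and Ide and Cyfip2 lie near it.

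Cyfip2, at chr11:46193850-46312859 on the minus strand, was the most even member among WT mice. Its lowest, median and highest levels were 107, 141 and 176 CPM in WT HSCs. In Pon2-/- HSCs they were 87.8, 128 and 167 CPM. The ranges overlapped over most of their length. The means were 144 ± 25.7 CPM and 127 ± 29.95 CPM (SD, n = 6 each), with a log2 fold change of -0.18 (SE 0.19, edgeR adjusted p = 0.9999, two-sided exact permutation test p = 0.307). The SD of log2 CPM was 0.26 in WT and 0.35 in Pon2-/- HSCs. Among samples with Y-linked counts, Cyfip2 had 132 to 147 CPM in WT and 87.8 to 149 CPM in the Pon2-/- samples, and among those without, 107 to 176 CPM and 141 to 167 CPM, with overlap in both.

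Nlrp12, at chr7:3218784-3249740 on the minus strand, had 0 counts in all 12 samples, which allows up to 3 counts per sample, or 0.121 to 0.235 CPM. Its RNA was thus not detectable at this depth in either genotype. Samples with high neutrophil and monocyte markers, at up to 13398 CPM summed in Pon2-/- replicate 1, had 0 counts of Nlrp12 as well.

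Of the 6 members, 4 had counts, and the same 4 passed the filter on low counts. None of the 3 that were tested, Nnt, Ide and Cyfip2, was called by edgeR at an adjusted p under 0.05 and more than 2-fold change, against 0.203% of all tested genes, with 0.127% called higher and 0.0760% called lower in Pon2-/- HSCs. Ide had an unadjusted p under 0.05, and DESeq2 without its cutoff for outlying counts called it. Per kilobase of exon, the mean level in WT HSCs was highest for Cyfip2 at 20.3 CPM per kb (range 15.1 to 24.8), followed by Ide at 9.15 (6.47 to 16.1), Nnt at 4.52 (1.04 to 9.30) and Wdfy1 at 3.76 (0.321 to 6.33). These ranges overlapped between all neighbours in this order. In Pon2-/- HSCs the order was Cyfip2 at 18.0 CPM per kb (12.4 to 23.5), Wdfy1 at 15.5 (12.4 to 18.9), Nnt at 7.98 (4.74 to 11.4) and Ide at 4.33 (2.05 to 7.64). There the range of Wdfy1 lay above that of Nnt, and the other neighbours overlapped.

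The genes whose log2 CPM ran most alike with each member over the 12 samples were named as a description, out of 11848 tested genes. For Wdfy1 they were Csrp1 (r = 0.964), Enoph1 (r = 0.958) and Crkl (r = 0.932). Csrp1 encodes a LIM domain protein of the actin cytoskeleton, and its mean was 9.07 CPM in WT samples and 61.1 CPM in Pon2-/- HSCs. For Ide they were Neurl4 (r = 0.882), the class I gene H2-Q4 (r = 0.864) and the myosin gene Myo6 (r = 0.860), each with a lower mean in Pon2-/- HSCs, for Myo6 3.35 CPM against 20.6 CPM in WT. For Nnt they were Cdyl2 (r = 0.948), Bbs1 (r = 0.885) and Elovl6 (r = 0.884), an enzyme of fatty acid elongation. Bbs1 had low means, 3.80 CPM in WT and 7.29 CPM in Pon2-/- samples, and a Spearman's rho with Nnt of 0.486. Its r with Nnt was 0.917 over the 6 WT samples and 0.0915 over the 6 Pon2-/- samples. For Cyfip2 they were the integrin gene Itgb7 (r = 0.886), Gm10719 (r = 0.858) and Xkr8 (r = 0.855). All points share the same 12 libraries, and any difference between the genotypes enters r, as for Wdfy1 and Ide. With Wdfy1, r was 0.938 for Csrp1, 0.968 for Enoph1 and 0.964 for Crkl over the 6 WT samples, and 0.317, 0.588 and -0.71 over the 6 Pon2-/- samples.

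Genes next to the members on the chromosome are given beside them as a description. Within 1 Mb of the 6 members lay 58 tested genes, of which edgeR called 0 (0.203% of all tested genes), 0 had genotypes that did not overlap (0.633% of all tested genes) and 1 had an unadjusted p under 0.05 (3.13% of all tested genes). DESeq2 called 0 as well, against 1.74% of the genes it tested. For 58 genes these counts are near the shares, so they cannot show whether a difference extended beyond a member. Beside Wdfy1, with 6 tested neighbours, the nearest were Mrpl44, which overlaps it, and Ap1s3 at 30.3 kb, with a log2 fold change of 0.38 (SE 1.11). Beside Ide, with 11 tested neighbours, the nearest were March5 at 46.6 kb and the mitotic kinesin gene Kif11 at 38.6 kb. March5 had a log2 fold change of 0.63 (SE 0.69) and Kif11 of -0.61 (SE 0.53). Beside Nnt, Paip1 at 19.6 kb had a log2 fold change of -0.90 (SE 0.64), and Mrps30 at 948 kb on the other side of -0.30 (SE 0.30). Beside Cyfip2, Gm12166 had -0.31 (SE 0.54) and Med7 0.11 (SE 0.34), and the gene with an unadjusted p under 0.05 was Thg1l at 238 kb, named after its values were seen, with 0.81 (SE 0.28, unadjusted p = 0.0119, edgeR adjusted p = 0.9999). Beside Entpd4, Slc25a37 had -0.38 (SE 0.97) and R3hcc1 0.34 (SE 0.62). The nearest tested gene to Nlrp12 was Ndufa3 at 368 kb, with -0.09 (SE 0.13).

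**Figure D3:**
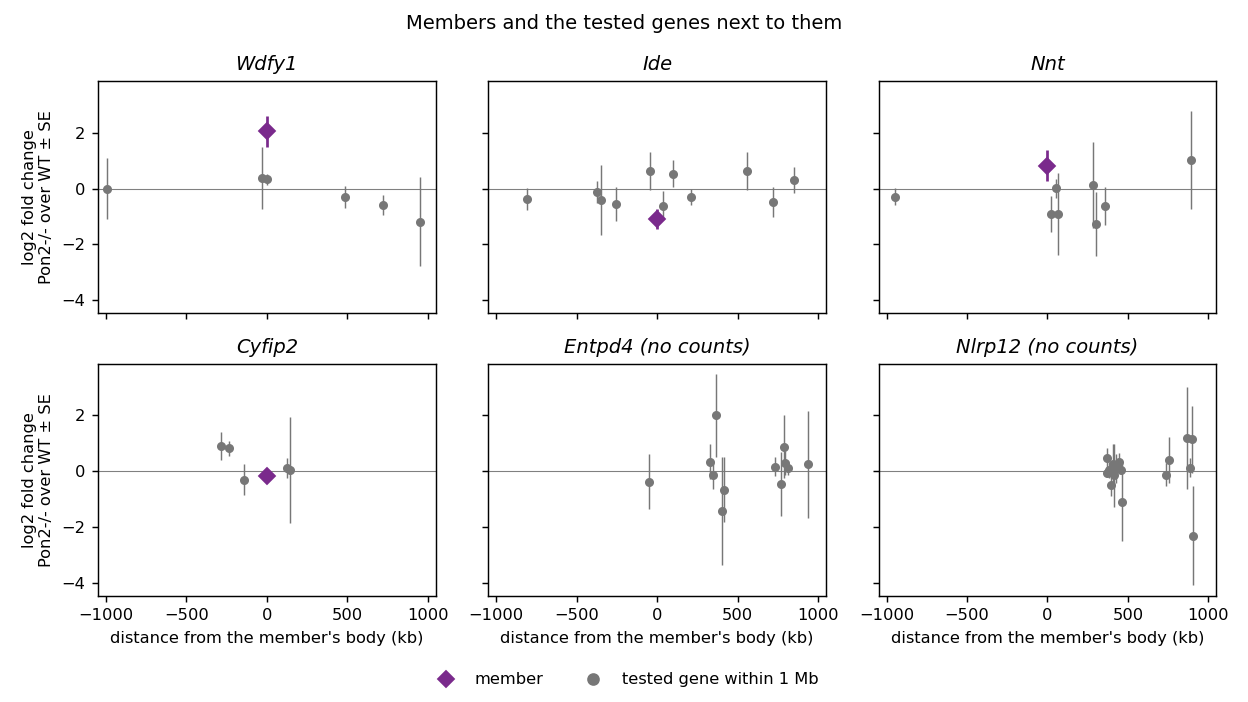
Log2 fold change of Pon2-/- over WT HSCs (y axis, edgeR, bars ± SE) of tested genes within 1 Mb of each member, by distance in kb from the member's body (x axis), with tested members as purple diamonds at distance 0. Wdfy1 stands at 2.04 above its 6 neighbours, which lie between -1.18 and 0.38, and Ide at -1.08 lies below its 11 neighbours, which lie between -0.61 and 0.63.

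Genes that work with each member were taken from short lists. Over all tested genes the median log2 fold change was -0.01, and edgeR called 0 members of any list, with 0 members whose genotypes did not overlap and 2 with an unadjusted p under 0.05. Over all tested genes these shares were 0.203%, 0.633% and 3.13%. The lists held 14, 15, 5, 10, 10 and 12 tested genes, so the counts were near these shares and no excess is read from them. Mitochondrial NADPH and peroxide genes, partners of Nnt, had a median log2 fold change of -0.06 over 14 tested of 16 listed genes, with 4 positive and 10 negative values. The largest value was 0.66 (SE 0.41) for Txnrd2, the mitochondrial thioredoxin reductase. Genes of TLR3 and TLR4 signalling and further Wdfy genes, around Wdfy1, had a median of 0.27 over 15 tested of 16, with 9 positive and 6 negative values. The receptor Tlr3 had the largest value, 2.02 (SE 1.94), from 0 to 9.24 CPM in WT samples and 0 to 27.9 CPM in Pon2-/- HSCs, so that the genotypes overlapped. In the ENTPD family, 5 of 9 genes were tested, with a median of 0.28, and Entpd7 had the largest value, 1.14 (SE 1.18).

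Around Ide, the M16 peptidases and insulin receptor genes had a median log2 fold change of -0.14 over 10 tested of 11. The largest was that of Insr, the insulin receptor, whose ligand Ide degrades. Insr had 23.1 to 125.8 CPM in WT samples and 18.3 to 41.9 CPM in Pon2-/- HSCs, with means of 69.7 ± 36.2 CPM and 27.3 ± 9.07 CPM (SD, n = 6 each), and the ranges overlapped. Its log2 fold change was -1.35 (SE 0.41, unadjusted p = 0.00515, edgeR adjusted p = 0.889), and DESeq2 called it (adjusted p = 0.0291). The WAVE complex and Rac genes around Cyfip2 had a median of -0.20 over 10 tested of 13. Nckap1, a WAVE subunit, had -2.36, with 0.127 to 39.2 CPM in WT samples and 0 to 7.99 CPM in Pon2-/- samples. The NLR and inflammasome genes around Nlrp12 had a median of -0.10 over 12 tested of 20, and Nlrc3, an NLR protein, had the largest value, 1.46 (SE 0.96).

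DESeq2 tested 17466 genes, more than edgeR, so the numbers of tested list genes given above do not apply to it. It called 1.74% of the genes it tested and 3 members of the lists, all with negative log2 fold changes. No excess or shared direction is read from these 3. Beside Insr these were Pycard and Entpd3, named after their values were seen. Pycard, the adaptor that joins NLR sensors to caspase-1, had 85.2 to 139.7 CPM in WT samples and 37.0 to 99.4 CPM in Pon2-/- HSCs (log2 fold change -1.07, SE 0.28, unadjusted p = 0.00183, edgeR adjusted p = 0.494, DESeq2 adjusted p = 0.0066). Entpd3 had 308 counts over the WT samples, at 0 to 14.7 CPM, and 0 counts in Pon2-/- HSCs. It did not pass edgeR's filter on low counts. Its WT mean was 3.51 ± 6.03 CPM (SD, n = 6), so the WT counts were uneven, with the lowest WT level also at 0. DESeq2 gave a log2 fold change of -21.5 (adjusted p = 9.3e-11), set against 0 counts in every Pon2-/- sample.

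**Figure D4:**
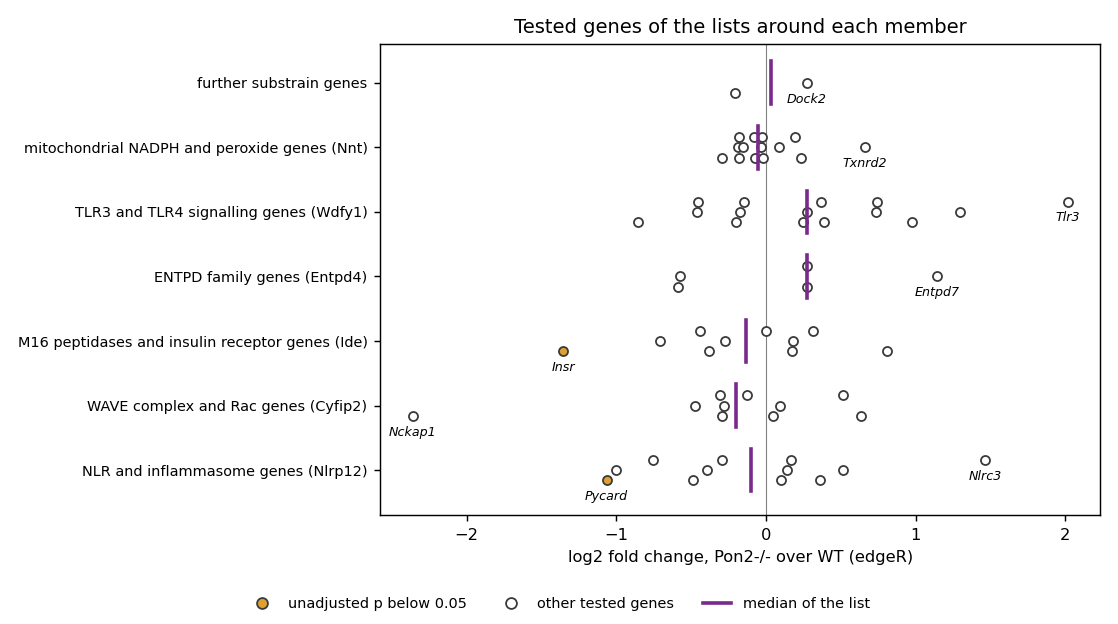
Log2 fold change of Pon2-/- over WT HSCs (x axis, edgeR) of the tested genes in each list (1 point per gene), with the median of each list as a purple line and genes with an unadjusted p under 0.05 filled. The gene with the largest absolute value in each list is named, and Insr and Pycard are the 2 filled points.

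Another 6 genes known to differ between C57BL/6 substrains or colonies gave the same comparison elsewhere in the genome. Dock2, a guanine nucleotide exchange factor for Rac, had 219 ± 92.9 CPM in WT samples and 265 ± 98.9 CPM in Pon2-/- samples (SD, n = 6 each, log2 fold change 0.27, SE 0.29). Mmrn1, which encodes a protein of platelets, had 253 ± 74.7 CPM and 219 ± 90.8 CPM (log2 fold change -0.21, SE 0.29). These were the 2 that passed the filter. Of them edgeR called 0 (0.203% of all tested genes), and 0 had an unadjusted p under 0.05 (3.13% of all tested genes). DESeq2 called 0 of the further substrain genes, against 1.74% of the genes it tested. For so few genes these counts are near the shares, and nothing is read from them. Gabra2 had 5 counts in WT HSCs, all in WT replicate 5, and 4 in Pon2-/- HSCs. Adcy5 had 0 counts in WT and 18 in Pon2-/- HSCs, all in Pon2-/- replicate 4. Crb1 had 0 counts in all samples.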

How the data were processed

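The members, the lists and the tests were chosen with earlier results of these data known. The named genes were Pon2, the members and their copies, the 6 further substrain genes (1 of them is not reported here), the 3 genes most alike with each member, the nearest tested gene on each side, and in each list the gene with the largest absolute log2 fold change and any gene called or without overlap. Per the labels, the authors checked reads with FastQC 0.11.5, trimmed them with Trimmomatic 0.36, mapped them to GRCm38.p5 with STAR 2.5.3a and deposited raw counts per gene of GENCODE release M12, without normalization or a filter. The single count column was taken as unstranded, since Smart-seq2 marks no strand, so reads where genes on opposite strands overlap cannot be told apart. Names, positions and transcripts came from GENCODE release M21 (49326 of 49585 genes matched), and sequences from GRCm38.

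Counts of 6 WT and 6 Pon2-/- samples, grouped by genotype label, were compared in R 4.3.3 with edgeR 4.0.16 (TMM, filterByExpr, quasi-likelihood test, genotype as the only term). Of the genes, 11848 were tested. Calls needed a Benjamini-Hochberg adjusted p under 0.05 and more than 1 on the absolute log2 scale. CPM used TMM-scaled totals, and log2 CPM a prior count of 2. Genes of like level had a mean log2 CPM within 0.5. Single genes were compared with two-sided exact permutation tests over all 924 assignments. CPM per kb used the summed length of all exons of a gene. Alternatives were other size factors and filters, DESeq2 1.42.0, limma 3.58.1 with voom and quality weights, robust estimation, a replicate block, a term for Y-linked counts, other CPM scales and leaving out each sample. The fits were tested on simulated data. Each sample was 1 mouse by the label of 6 mice per genotype. No 2 samples held identical counts.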

Additional observations from a re-analysis of the deposited data

Results flagged for a closer look

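In 10 groups of 6 samples, 1 sample was compared with its own group on the CPM scale. For normally distributed values, chance passes this check in about 1 of 20 groups. Ide in WT replicate 5 was 121 CPM, far from the other 5 WT samples at 48.6 to 68.9 CPM, a gap of 0.717 of the whole range against a critical value of 0.625. Without WT replicate 5 the log2 fold change of Ide was -0.84 in edgeR, and the exact permutation p was 0.0108. Pon2 in Pon2-/- replicate 5 was 1.16 CPM, far from the other 5 Pon2-/- samples at 28.4 to 33.1 CPM, a gap of 0.853 of the range. The same sample had the highest level of Ide, of Nnt and of Wdfy1 among the Pon2-/- samples.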

How the results depend on the processing

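The number of genes called was 24 in edgeR, 8 with no filter beyond 1 read, 5 with a replicate block, 304 with DESeq2 and 940 with DESeq2 without its cutoff for outlying counts, and 20 to 28 when 1 sample was left out. The log2 fold change of Pon2 passed the threshold in DESeq2, at -2.13 (adjusted p = 0.0106, or 0.00457 without the cutoff), and in edgeR without Pon2-/- replicate 5, at -1.88 (adjusted p = 0.0295), and leaving out samples gave -2.27 to -1.88. Both DESeq2 settings called 3 list members. For Ide all 21 alternatives gave a lower level in Pon2-/- HSCs, with adjusted p from 0.0345 to 1.0, and DESeq2 without its cutoff (-1.07) passed the threshold. Leaving out samples gave -1.32 to -0.84 for Ide, 0.61 to 1.16 for Nnt, -0.27 to -0.10 for Cyfip2 and 1.80 to 2.25 for Wdfy1. For the difference of mean log2 CPM it gave -1.29 to -0.91 for Ide (exact permutation p 0.00216 to 0.0152) and 0.89 to 1.52 for Nnt (exact permutation p 0.0303 to 0.162). No alternative called Nnt, Cyfip2 or a gene next to a member. The cause of the changes was not tested. Entpd4 and Nlrp12, at 0 counts, gave no value under any alternative. Samples with the same replicate number deviated together with correlations of 0.000932 to 0.043, and 3 of 12 samples correlated best with their own number, so the numbers were not taken as pairs. With the replicate block the log2 fold change was -1.11 for Ide, 1.23 for Nnt and 2.51 for Wdfy1.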
